A study of Mus musculus with 4 samples.

Results

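Cluster 4 is the group of cells that carries the number 4 in the cluster row of the deposited single cell table, where its cells are labelled mature luminal. Its members were taken by that number alone and came to 3713 of 32439 cells, or 15.6% of the 23800 mature luminal cells of clusters 4 to 11. The cells came from thoracic and abdominal mammary glands of 6-week-old C57BL/6N mice, enriched for epithelium and sorted for luminal cells. The WT group was ErbB3+/+;MMTV-Cre and the V943R group was ErbB3V943R/V943R;MMTV-Cre, so both groups carried the *MMTV-Cre* transgene. ERBB3 is a receptor with little kinase activity of its own that switches on its partner ERBB2, and the V943R allele, made active by Cre in the mammary epithelium, impairs that activator function. The glands of 3 mice were pooled per genotype, and each pool gave 2 droplet libraries, A and B, whose letters do not pair the genotypes. Each genotype was therefore 1 pool, no test between genotypes was made, and intervals are 95% intervals that cover counting error only.

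Mature luminal cells are the hormone-sensing cells of the mammary ducts. They carry the receptors for estrogen, progesterone and prolactin, and on exposure to these hormones they release paracrine signals such as amphiregulin and WNT4 that act on neighbouring epithelial cells. FOXA1 is the pioneer factor that opens chromatin for the estrogen receptor.

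Levels are given as CPM. This is the number of unique molecular identifiers (UMIs), which count captured mRNA molecules, of a gene per 1000000 UMIs of the same cells. Cluster 4 held 1080 cells in WT A, 1099 in WT B, 766 in V943R A and 768 in V943R B, with 8003977 WT and 6718428 V943R UMIs. Its cells had a median of 3498 UMIs and 1688 genes. The medians by library were 3060.5 and 3562 UMIs in WT and 3720 and 3768.5 in V943R, so the V943R cells were deeper. The median mitochondrial share of a cell was 0.220%, against 0.169% to 0.952% in clusters 5 to 11. Over all pairs of libraries, 521 cell barcodes were shared, and in 28 of these pairs both cells were in cluster 4. Doublets were not removed here. The median depths of clusters 5 to 11 ran from 1447.5 to 5254.5 UMIs.

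The share of cluster 4 differed little between genotypes. It came to 11.22% in WT A, 12.20% in WT B, 11.18% in V943R A and 11.05% in V943R B. Both V943R libraries lay below both WT libraries, V943R A only just below WT A. The V943R share over the WT share was 0.951 (0.894 to 1.01). Among mature luminal cells the shares were 15.4% (14.8% to 16%) in WT and 16% (15.2% to 16.7%) in V943R, a ratio of 1.04 (0.979 to 1.10). Cluster 11, which held a smaller share of V943R cells, enters both denominators. Among cells outside cluster 11 the ratios were 0.846 and 0.892.

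The markers fitted the label. *Prlr*, the prolactin receptor (chromosome 15 from 10177238 to 10349180, GRCm38), stood at 2216 and 2341 CPM in the WT libraries and 2001 and 2156 CPM in the V943R libraries, with 2191 CPM over all (2167 to 2215). In clusters 1 and 2, labelled luminal progenitors, *Prlr* stood at 232 and 311 CPM. *Pgr*, the progesterone receptor, stood at 164 CPM (158 to 171) against 16.9 and 22.5 in those progenitor clusters. *Esr1*, the estrogen receptor, stood at 51.8 CPM (48.1 to 55.6) against 8.6 and 11.5, and *Foxa1* at 140 CPM (134 to 146) against 23.1 and 34.8. All of these progenitor values lay below the lowest library of cluster 4. The paper defined mature luminal cells by *Prlr*, so the level of that gene is no separate check of the label.

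Against the other mature luminal clusters the same markers did not stand out. The ratio of cluster 4 to the mean of clusters 5 to 11 was 1.07 for *Prlr*, 1.11 for *Pgr*, 1.15 for *Esr1* and 0.901 for *Foxa1*, and each level lay inside the range of those clusters. A *Prlr* UMI was found in 98.6% of cluster 4 cells (98.2% to 99.0%), or in 85.6% of the 3684 cells with at least 1000 UMIs after thinning to that depth, which left out 29, against 24.8% and 13.9% of cluster 1 cells, whose median depth was 1854 UMIs. A *Pgr* UMI was found in 43.8% of cluster 4 cells, an *Esr1* UMI in 17.3% and a *Foxa1* UMI in 37.4%. After thinning these shares were 15.6%, 4.78% and 12.4%, against 1.29%, 0.559% and 1.5% in cluster 1. Cluster 3, the luminal intermediate cells of the paper, came near at 10.3%, 3.77% and 11.7%, and at 77.1% for *Prlr*. These markers set cluster 4 further from the progenitor clusters than from cluster 3.

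**Figure D1:**
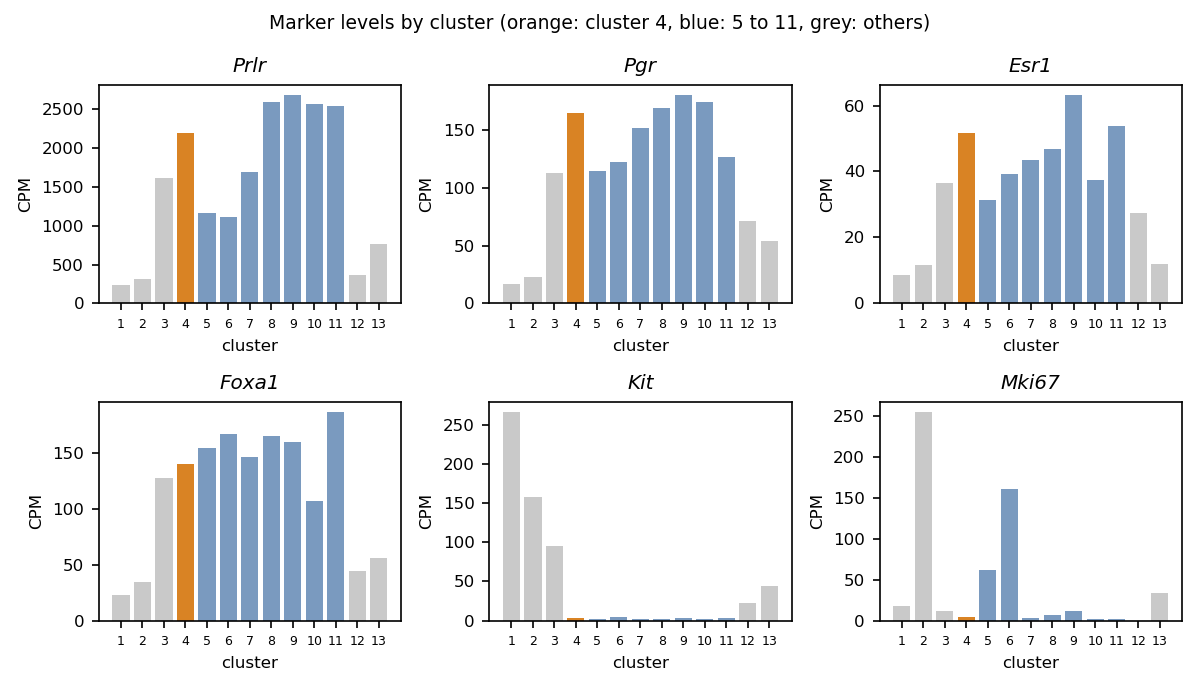
Levels in CPM (linear axes from 0) of 6 marker genes in the 13 clusters, over all 4 libraries, with cluster 4 in orange and clusters 5 to 11 in blue. *Prlr*, *Pgr*, *Esr1* and *Foxa1* in cluster 4 lie among the other mature luminal clusters and above clusters 1 and 2, while *Kit* and *Mki67* are near the axis.

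Markers of other cells were low. Of the 15 listed genes of luminal progenitors, 13 had a UMI in cluster 4, and together they came to 211 to 229 CPM in the 4 libraries against 154 to 246 CPM in clusters 5 to 11. *Kit*, a progenitor receptor, stood at 2.78 CPM against 266 CPM in cluster 1. The 11 basal genes came to 26.2 to 30.6 CPM (16.9 to 53.8 in clusters 5 to 11), with *Krt5* at 0.679 CPM. The 11 immune genes came to 8.29 to 11.9 CPM (6.69 to 13.6), and *Ptprc*, the pan-leukocyte gene, was found in 0 of 3713 cells, which allows up to 0.0808% of cells with a UMI, while in cluster 13, which is not mature luminal, 12.8% of cells had one. The 7 endothelial genes came to 23 to 32.2 CPM (17.1 to 38.3). The 8 fibroblast genes came to 12.6 and 19.3 CPM in the WT libraries but 6.10 and 4.36 CPM in the V943R libraries (4.6 to 32.2 in clusters 5 to 11), a difference that lay mostly in *Dcn*. Leaving out the cells with a UMI of *Kit*, *Elf5*, *Krt5*, *Krt14*, *Ptprc*, *Pecam1* or *Col1a1* left 3331 cells.

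What set cluster 4 apart from clusters 5 to 11 was a group of genes of mixed roles. Since the clusters were drawn from these same values, these levels describe the cluster and are no test. The rule asked that the CPM in cluster 4 be at least 1.5 times the mean of the CPM of clusters 5 to 11 in each of the 4 libraries, with at least 50 UMIs in cluster 4. It was met by 173 of 11472 genes (1.51%), with a median ratio of 2.46. Of these, 168 stood above every one of clusters 5 to 11, and 122 stood at least 1.5 times above the highest of them. The median ratio over these genes was 2.43 and 2.51 for WT A and B and 2.51 and 2.49 for V943R A and B. The genes lay on 21 chromosomes, with at most 8.67% of them on any 1 chromosome.

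The 12 genes with the highest ratio were *Slc39a1*, *Wtap*, Gm25930, *Spry2*, *Abhd2*, 4833421G17Rik, *Notch2*, *Fn3krp*, *Ccdc85c*, *Amt*, *Zfp691* and *Kmt2d*. For those of the 12 with 1 promoter in the RefSeq table (GRCm38.p6), the 250 bases before the start are shown for the 4 that led in ratio, to let the sequences of genes that moved together be read side by side. Capitals mark CCAAT on either strand, and the other letters searched were CACGTG (an E-box), TGACTCA (the AP-1 site) and CCGGAAG (an ETS site), none of which overlapped a CCAAT here.
Slc39a1: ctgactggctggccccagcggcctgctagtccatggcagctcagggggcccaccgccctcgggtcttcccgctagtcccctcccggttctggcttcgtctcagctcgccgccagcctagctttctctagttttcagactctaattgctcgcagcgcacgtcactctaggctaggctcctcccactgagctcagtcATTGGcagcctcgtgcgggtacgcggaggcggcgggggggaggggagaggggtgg
Spry2: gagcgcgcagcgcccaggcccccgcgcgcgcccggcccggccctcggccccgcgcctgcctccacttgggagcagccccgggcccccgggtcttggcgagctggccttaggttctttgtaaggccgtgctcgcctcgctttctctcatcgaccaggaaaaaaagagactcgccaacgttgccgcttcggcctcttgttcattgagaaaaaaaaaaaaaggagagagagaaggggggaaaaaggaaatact
Abhd2: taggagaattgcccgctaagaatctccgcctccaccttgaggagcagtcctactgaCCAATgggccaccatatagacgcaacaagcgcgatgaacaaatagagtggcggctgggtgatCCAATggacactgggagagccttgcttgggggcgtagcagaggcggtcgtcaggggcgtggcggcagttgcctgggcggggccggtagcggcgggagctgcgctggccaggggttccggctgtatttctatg
Notch2: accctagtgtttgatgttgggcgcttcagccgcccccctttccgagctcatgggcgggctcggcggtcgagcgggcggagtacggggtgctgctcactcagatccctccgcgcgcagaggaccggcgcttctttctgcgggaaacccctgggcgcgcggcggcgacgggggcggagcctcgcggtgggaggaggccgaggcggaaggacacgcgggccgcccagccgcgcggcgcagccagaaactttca
The *Slc39a1* window lies at chr3:90247942-90248191 (plus strand), *Spry2* at chr14:105896820-105897069 (minus strand), *Abhd2* at chr7:79273016-79273265 (plus strand) and *Notch2* at chr3:98013288-98013537 (plus strand). Their GC content was 66.4%, 62.4%, 61.6% and 72.0%. The letters CCAAT were in 46 of the 112 raised genes that had a promoter in the table (41.1%), against 40.4% of the 7816 tested genes with one and 33.8% of all 32851 promoters. CACGTG was in 11 of the 112 (9.82%) against 10.3% of tested genes and 6.02% of promoters. CCGGAAG was in 12 (10.7%) against 17.6% and 6.91%, and TGACTCA in 1 (0.893%) against 3.93% and 4.46%. No motif searched stood clearly above its share among the tested genes.

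*Slc39a1*, a zinc transporter of the cell membrane (chromosome 3 from 90248172 to 90253612), stood at 248 and 269 CPM in the WT libraries and 280 and 262 CPM in the V943R libraries. Clusters 5 to 11 ranged from 22.9 to 54.4 CPM, so every library of cluster 4 lay above every other mature luminal cluster, and the ratio to their mean was 7.75. At least 1 UMI of *Slc39a1* was seen in 56.3% of cluster 4 and 11.4% of clusters 5 to 11, or 22.9% and 3.09% after thinning. *Abhd2*, a lipid hydrolase, stood at 1337, 1302, 1453 and 1445 CPM in WT A, WT B, V943R A and V943R B against 124 to 339 CPM in clusters 5 to 11, and was found in 90.8% against 44.6% of cells.

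Signalling genes made up part of the group. *Spry2*, a feedback inhibitor of receptor tyrosine kinase signalling to ERK, stood at 118, 134, 129 and 124 CPM in the 4 libraries against 12.6 to 33.3 CPM in clusters 5 to 11, a ratio of 6.46. It was the 1 of 14 ERK feedback genes that met the rule, of which 11 had at least 50 UMIs, beside 1.51% of all genes tested. *Notch2*, a Notch receptor, stood at 70.2, 65.9, 72.0 and 64.6 CPM against 6.60 to 22.1 CPM. In cluster 1, outside the class, *Spry2* stood at 150 CPM and *Notch2* at 65.1 CPM, near their levels in cluster 4. *Jag1*, a Notch ligand, stood at 113, 131, 131 and 125 CPM against 21.8 to 48.1 CPM. These were 2 of the 11 Notch genes listed, again beside 1.51%, and the 8 with at least 50 UMIs had a median log2 ratio of −0.01 beside −0.05 over all genes tested. Of the 15 FOXO targets, 14 had at least 50 UMIs and 1 met the rule, beside the same 1.51%. This was *Cdkn1b*, the cell cycle inhibitor p27, at 83.3, 83.1, 80.2 and 90.4 CPM against 21.1 to 44.4 CPM. *Foxo3*, itself a FOXO factor and named after its values were seen, had a ratio of 2.80.

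The largest number of UMIs in the group came from *Actb*, the cytoplasmic beta-actin (chromosome 5 from 142903115 to 142906754). It stood at 12777, 12446, 12537 and 12673 CPM in the 4 libraries against 1961 to 4601 CPM in clusters 5 to 11, a ratio of 4.35. *Actg1*, the cytoplasmic gamma-actin, did not share this pattern, with 60.4, 54.3, 79.9 and 60.5 CPM against 43.6 to 83.7 CPM and a ratio of 0.931. Together the group took 3.31% of the UMIs of cluster 4, or 2.05% without *Actb*.

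Regulators of transcription and chromatin were also among the raised genes, and the following were named after their values were seen. *Bhlhe41*, a clock-linked transcriptional repressor, stood at 777, 818, 844 and 848 CPM against 104 to 229 CPM. *Kdm6b*, a histone H3 lysine demethylase, stood at 354, 362, 340 and 306 CPM against 53.4 to 106 CPM, and *Kmt2d*, a histone H3 lysine methyltransferase, at 222, 208, 210 and 192 CPM against 32.1 to 52.3 CPM. *Nfia* had a ratio of 4.10, *Skil* of 2.82 and *Ncoa3*, a coactivator of nuclear receptors, of 3.14.

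Genes that act on mRNA were a further set, chosen after their values were seen. *Wtap*, a subunit of the enzyme complex that writes N6-methyladenosine on RNA, stood at 151, 160, 152 and 186 CPM against 14.5 to 45.9 CPM. Its partner *Rbm15* had a ratio of 4.24, the demethylase *Alkbh5* of 3.14 and the reader *Ythdf2* of 1.86. These were 4 of 15 genes of this modification, all with at least 50 UMIs, beside 1.51% of all genes tested, and since the list was made after the values were seen nothing is read from the count. The catalytic subunits *Mettl3* and *Mettl14* had log2 ratios of −0.20 and −0.14, and the median over the 15 was −0.03. *Pdcd4*, an inhibitor of translation, stood at 1221, 1119, 1162 and 1131 CPM against 259 to 495 CPM. *Paip1*, which binds the poly(A)-binding protein, had a ratio of 4.37 and *Pan3*, a subunit of a deadenylase, of 3.56.

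**Figure D2:**
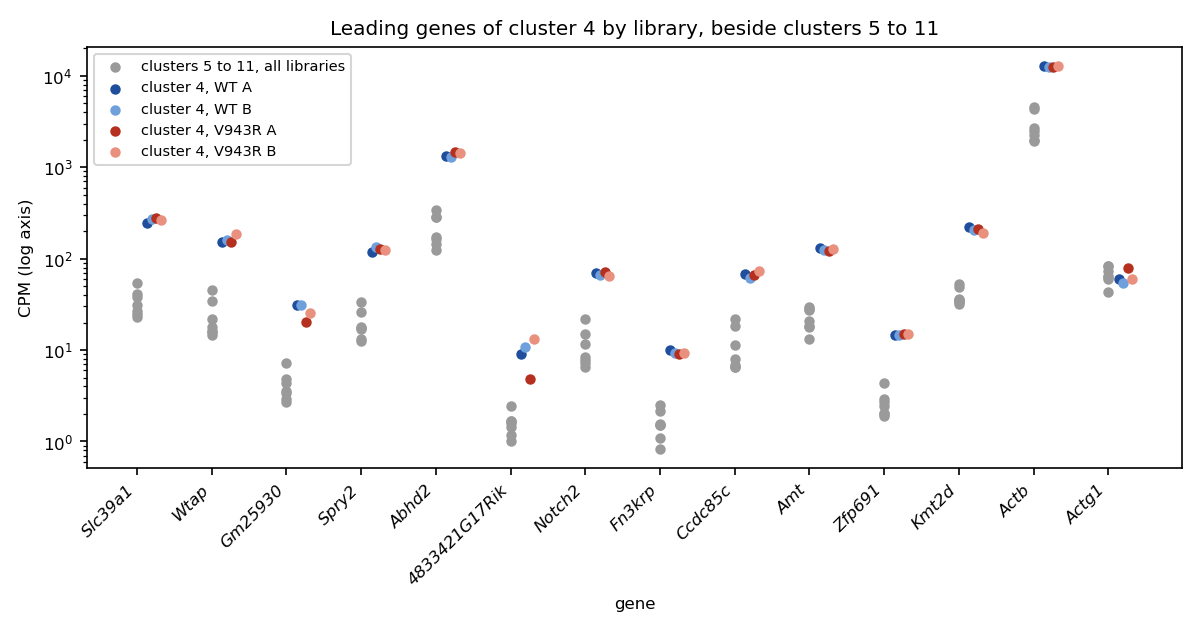
CPM on a log axis of the 12 genes with the highest ratio and of *Actb* and *Actg1*, with 1 coloured point for each library of cluster 4 and grey points for clusters 5 to 11 over all libraries. For every gene but *Actg1* the 4 coloured points lie above all grey points, and for *Actg1* they lie among them.

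The summed level of genes induced by tissue handling lay within the range of clusters 5 to 11. Of the 22 immediate early and heat shock genes, 0 met the rule in either direction. This stands beside 1.51% higher and 2.27% lower of all genes tested, so a count of 0 says little. Their median log2 ratio was 0.13, beside −0.05 over all genes tested. They came to 24379 to 29785 CPM in the libraries of cluster 4, within the 18666 to 32338 CPM of clusters 5 to 11. Nuclear RNAs gave no single direction, since *Neat1* had a ratio of 1.75 and *Malat1* of 0.987. Of the raised genes, 80.3% were annotated as protein coding against 84.6% of all genes tested, and their median length in the genome was 27126 bases against 18024 bases.

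Per cell, the raised genes without *Actb* took a median of 2.0% of 1000 thinned UMIs in cluster 4 and 0.60% to 0.800% in clusters 5 to 11. Without thinning the median was 2.05%, with 1.26% and 3.29% at the 5th and 95th percentiles, and the medians of clusters 5 to 11 were 0.621% to 0.819%. Outside cluster 4 the upper tail was longest in clusters 1, 3 and 12, with 95th percentiles of 2.40%, 2.40% and 2.52%, and shortest in cluster 10, with 1.30%. The level of 1.10%, the 5th percentile of cluster 4, was reached by 31.6% of cluster 1 cells (30.4% to 32.9%) and 31.9% of cluster 3 cells (29.9% to 34.0%). Among the mature luminal clusters it was reached by 29.5% of cells in cluster 9, 26.4% in cluster 6, 20.6% in cluster 5, 19.3% in cluster 8, 15.2% in cluster 7, 14.3% in cluster 11 and 13.2% in cluster 10, so clusters 9 and 6 came near clusters 1 and 3. In cluster 1 the shares were 32.0% and 31.5% for WT A and B and 33.2% and 29.9% for V943R A and B.

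The cells of other clusters with more of these genes also had more *Actb*. The 172 genes were dealt in turn, in alphabetical order, into lists of 86 and 86, and the first list alone was used to sort the cells of each cluster at the 5th percentile of cluster 4 (0.400%). In cluster 1, the 2601 cells at or above it had 0.655% of their UMIs in the second list against 0.374% in the rest, and 7691 against 2315 CPM of *Actb*. *Actg1* stood at 65.4 and 66.5 CPM in the same cells, and the median depths were 1883 and 1923.5 UMIs. In cluster 6 *Actb* stood at 8245 against 2381 CPM, and in cluster 10 at 2463 against 1675 CPM. Across the 5189 thinned cells of cluster 1 the share correlated with *Actb* with r = 0.62 and with *Actg1* with r = −0.02, as a description of cells that share libraries. Across the 3684 thinned cells of cluster 4 these values were 0.40 and −0.01. An *Actg1* UMI was seen in 6.21% of thinned cluster 1 cells and 5.97% of those of cluster 4, against 87.9% and 99.4% for *Actb*. With so few UMIs counting noise holds r near 0, so the *Actg1* values are no contrast to those of *Actb*.

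**Figure D3:**
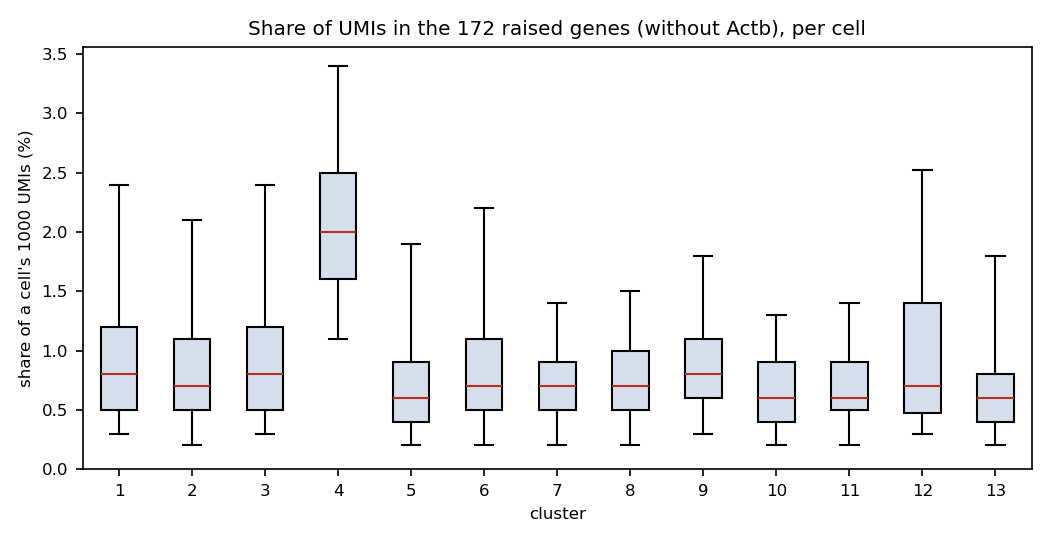
Share of the 1000 UMIs of each thinned cell that fell in the 172 raised genes without *Actb*, in percent, for the 13 clusters. Boxes span the quartiles with the median in red, and whiskers the 5th to 95th percentiles. Cluster 4 has a median of 2.0%, and whiskers of clusters 1, 2, 3, 5, 6 and 12 reach further up than those of clusters 7, 8, 10 and 11.

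Few genes were lower in cluster 4 once the cycling clusters were set aside. The opposite rule was met by 369 of 16274 genes (2.27%), and 341 of these had their highest level in cluster 5 or 6. Of the 16 proliferation genes, 14 met it. *Ccnb1*, the mitotic cyclin B1, stood at 1.91, 1.38, 0.914 and 1.74 CPM in the 4 libraries against 16.3 and 135 CPM in clusters 5 and 6, and *Mki67* stood at 4.69 CPM against 61.9 and 160.7 CPM. The 8 lowest ratios belonged to Gm8956, Gm15428, *Esco2*, *Ttk*, *Ccnb1*, *Mxd3*, *Ska1* and *Nusap1*, mostly genes of DNA replication and mitosis. Against the mean of clusters 7 to 11 alone, 31 genes were lower and 176 higher, of which 15 and 162 were among those of the first comparison. Besides cell cycle genes, *Upk3a*, a urothelial membrane gene, was lower, at 1817, 2297, 1789 and 1621 CPM against 183 to 6666 CPM in clusters 5 to 11, with a ratio of 0.616. It was not among the genes lower than the mean of clusters 7 to 11. *Cited1*, an estrogen receptor coactivator, did not meet the rule, with a ratio of 0.705.

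By the medians of their lists, the hormone response genes of cluster 4 stood near those of its class. *Areg*, which encodes amphiregulin, stood at 3617 and 3798 CPM in the WT and 4338 and 4709 CPM in the V943R libraries, a ratio to clusters 5 to 11 of 1.02. *Wnt4* stood at 95.4 CPM with a ratio of 0.982. *Tnfsf11*, which encodes RANKL, and *Tff3* had 0 UMIs in cluster 4, which allows up to 0.204 CPM when 3 UMIs are taken as the limit. Among luminal transcription factors, 0 of 22 met a rule, with *Gata3* at a ratio of 1.27 and *Sox9* at 1.31. None of the 15 mature luminal genes, 18 progesterone and estrogen response genes, 17 genes of the prolactin and STAT5 axis, 8 keratins, 12 junction genes, 9 S100 genes or 14 chemokines met a rule between clusters. Over all genes tested 1.51% were higher and 2.27% lower, so counts of 0 say little in lists of this size. The medians of these lists lay between −0.08 and 0.06 on the log2 scale, beside −0.05 over all genes tested.

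When the raised and the mitochondrial genes were left out, cluster 4 lay closest to clusters 8 and 7. Over 2079 genes, the root mean square log2 difference from cluster 4 was 0.162 for cluster 8, 0.209 for cluster 7, 0.264 for cluster 10, 0.324 for cluster 11, 0.365 for cluster 9, 0.440 for cluster 6 and 0.464 for cluster 5. Against cluster 8 alone, 165 genes were at least 1.5 times higher in every library, of which 151 belonged to the raised group. Each cell of cluster 4 was then matched to the most likely of clusters 5 to 11 from 10423 genes without the raised ones, a step chosen after the data were seen. The best match was cluster 10 for 30.3% of the cells, cluster 11 for 24.0%, cluster 7 for 18.5%, cluster 8 for 12.5%, cluster 9 for 9.02%, cluster 5 for 3.88% and cluster 6 for 1.78%. The same step returned 86.9% of cluster 10 cells and 85.6% of cluster 11 cells to their own cluster, but 59.0% of cluster 7 and 28.6% of cluster 8 cells, on profiles that held those cells.

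Cells that matched cluster 11 were fewer in V943R. They made up 29.9% (27.2% to 32.7%) and 31.3% (28.6% to 34.1%) of cluster 4 in the WT libraries and 15.5% (13% to 18.3%) and 13.5% (11.2% to 16.2%) in the V943R libraries, so the genotypes did not overlap. With profiles of the own genotype these values were 26.6%, 27.4%, 18.8% and 16.5%. Among the cells deposited as clusters 5 to 11, cluster 11 itself held 23.2%, 24.6%, 8.0% and 8.59% in the same order. The like measure is the matching step with profiles of all libraries, run on those cells. It gave cluster 11 for 27.6%, 29.2%, 9.97% and 11.05% of them, on profiles that held those cells. Cells that matched cluster 10 made up 28.1% and 27.0% of cluster 4 in WT and 33.2% and 35.3% in V943R. Of the raised genes, *Slc39a1* and *Actb* were followed by match, and both stood above clusters 5 to 11 in every group, with *Slc39a1* between 250 and 336 CPM and *Actb* between 10531 and 19448 CPM over the 7 groups. Both were chosen as raised in cluster 4, so this describes the cells and is no test. The other raised genes were not followed. The groups differed in their own genes, such as *Upk3a*, at 139 CPM in cells matched to cluster 10 and 8103 CPM in those matched to cluster 5, and *Areg*, at 1636 CPM in cells matched to cluster 11 and 5272 CPM in those matched to cluster 10. *Upk3a* and *Areg* took part in the matching, so these differences follow from it and are no separate finding.

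**Figure D4:**
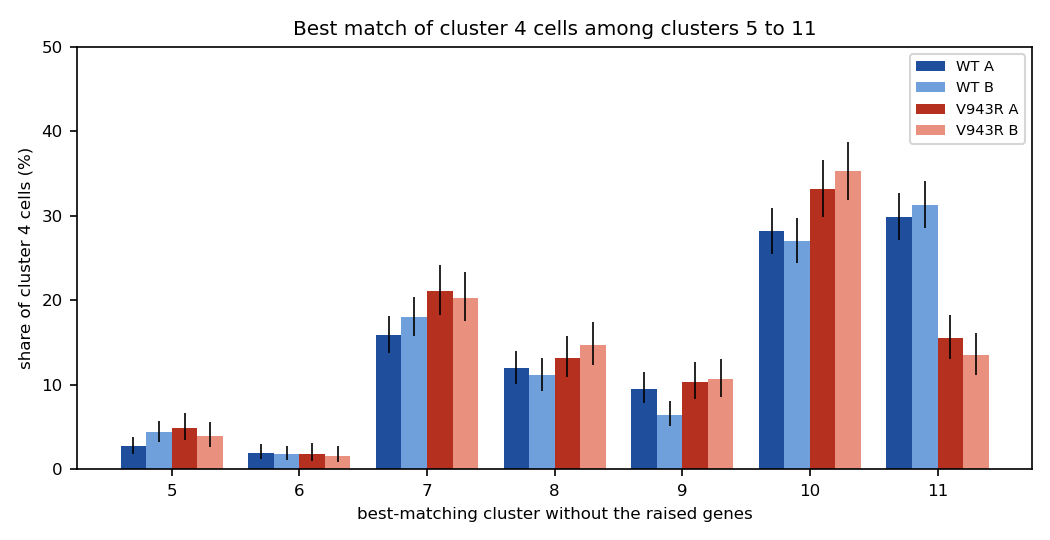
Share of the cluster 4 cells of each library, in percent, whose best match among clusters 5 to 11 was the cluster on the horizontal axis, with exact 95% binomial intervals as bars. For cluster 11 the WT libraries stand at 29.9% and 31.3% and the V943R libraries at 15.5% and 13.5%.

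Variation among cluster 4 cells was measured as the variance over the mean of thinned UMIs, with a median of 1.02 over 2739 genes. The highest values belonged to *Malat1* (20.7), *Sbp* (18.3), *Pcp4* (10.9), *Igsf5* (8.50), *Gpx3* (8.46), *Upk3a* (7.53), *Actb* (5.61), *Tmsb4x* (5.17), *Areg* (4.6) and *Ly6d* (4.57). *Sbp* moved with the library, from 6.21 in WT B to 28.1 in WT A. *Pcp4* and *Igsf5* rose and fell together across the 3684 thinned cells (r = 0.92), and they are neighbours on chromosome 16, from 96467606 to 96525793 and from 96361668 to 96422121. *Gpx3*, a secreted glutathione peroxidase, and *Upk3a* went opposite ways (r = −0.31). Over the 76 raised genes that were measured the median was 1.04, with *Actb* and *Abhd2* (2.09) well above it. For genes with few UMIs the measure stays near 1 from counting alone.

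Between genotypes, a gene was counted when its CPM within cluster 4 differed by 1.5 times or more, with 50 UMIs or more in the higher genotype and no overlap of its libraries with the other's. This was met by 249 genes higher in V943R (2.52% of 9873) and 139 lower (1.41%). The counts moved when a library was left out, which also leaves fewer UMIs for the minimum and a looser rule of no overlap. Without WT replicate A they were 394 and 87, without WT replicate B 355 and 76, without V943R replicate A 121 and 211, and without V943R replicate B 222 and 261. Membership moved as well. Of the 249 and 139 genes, 207 and 46 were counted again without WT replicate A, and 185 and 34 without WT replicate B. The numbers counted again were 89 and 94 without V943R replicate A, and 101 and 101 without V943R replicate B. The raised genes of cluster 4 stood nearly alike in both genotypes, with 1 of the 173 higher in V943R, 1 lower and a median log2 difference of −0.01. They were chosen by their ratio in each of the 4 libraries, which limits how far the genotypes could differ. A gene whose ratio fell below 1.5 in V943R could not enter the group. For cells in bulk sums such as these, fewer cells with a gene and less RNA of it per cell cannot be told apart.

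*Erbb3*, the gene that carries the mutation (chromosome 10 from 128567523 to 128589652), stood at 63.9 and 63.8 CPM in the WT libraries and 26.5 and 29.7 CPM in the V943R libraries. Both V943R libraries lay below both WT libraries, with a log2 difference of −1.18 (−1.43 to −0.94). The difference lay between −0.81 and −1.39 in clusters 5 to 11. A 3′ count does not read the altered codon, so this level does not check the allele. In the paper, the allele before Cre acts carries a wild-type cassette that ends in a 3′ region of human growth hormone. A 3′ count of *Erbb3* may miss transcripts of alleles that were not recombined, and their part was not tested. *Erbb2*, its partner, stood at 35.5 and 44.4 CPM in WT and 43.3 and 33.7 CPM in V943R, with overlapping libraries. *Erbb3* was the 1 of 15 ErbB receptors and ligands that met a rule, and 7 had enough UMIs, beside 2.52% higher and 1.41% lower of all genes tested.

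The largest folds toward V943R included *Gsta4*, a glutathione transferase for products of lipid peroxidation, at 134 and 163 CPM in WT and 481 and 369 CPM in V943R, 2.82 times higher. Its log2 difference of 1.5 (1.40 to 1.60) stood beside 1.05 to 1.45 in clusters 5 to 11. *Cdk5rap1* stood at 6.55 and 4.61 CPM in WT and 18.6 and 13.7 CPM in V943R. *Igsf5*, a junction protein, stood at 507 and 556 CPM in WT and 1156 and 1382 CPM in V943R, and *Pcp4*, its neighbour, at 636 and 706 against 1413 and 1714 CPM. For *Igsf5* the log2 difference in cluster 4 had an interval of 1.20 to 1.31, and the differences were 0.33 to 0.96 in clusters 5 to 11, which share the libraries. The others of the 10 largest folds were *Slc15a2*, *Ivl*, *Lce6a*, the pseudogenes Rps18-ps2 and Rps13-ps7, and the small RNA gene Gm22972. The pseudogenes share reads with their parent genes and are uncertain.

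Some genes known from stratified epithelium were among those higher in V943R, and the 5 given here were picked because they were. Of the 8 keratins listed, 6 had enough UMIs and 0 met the rule, and *Ivl* in cluster 10 and *Krt4* in cluster 11 went the other way. *Krt6a* stood at 58.7 and 67.5 CPM in WT and 111 and 121 CPM in V943R, *Krt4* at 53.3 and 73.2 against 96.4 and 108 CPM, and *Krt79* at 70.7 and 73.5 against 109 and 117 CPM. *Ivl*, which encodes involucrin of the cornified envelope, stood at 17.5 and 15.0 against 55.2 and 25.3 CPM, and *Sbsn* at 17.5 and 17.7 against 30.8 and 31.7 CPM. In each of these the V943R libraries lay above both WT libraries. *Rgs2*, a regulator of G protein signalling also named after its values were seen, stood at 56.5 and 58.7 against 112 and 132 CPM.

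Of 18 progesterone and estrogen response genes, 11 had enough UMIs, and of these 3 were higher and 1 lower in V943R, beside 2.52% and 1.41% of all genes tested. Of these 4, *Cxcl12* and *Cited1* lost the call once the mix of best matches was held equal. That step was no test of the mix. *Sgk1*, a kinase induced by steroids, stood at 122 and 157 CPM in WT and 206 and 233 CPM in V943R. *Tsc22d3*, which encodes the glucocorticoid-induced leucine zipper, stood at 22.1 and 22.3 against 35.4 and 34.6 CPM, and *Cxcl12* at 33.3 and 39.6 against 51.2 and 64.0 CPM. *Cited1* stood at 1146 and 1228 against 800 and 783 CPM, a log2 difference of −0.59 (−0.64 to −0.54). Of the prolactin axis, *Cish*, a STAT5 target and feedback inhibitor, stood at 19.7 and 28.6 against 41.5 and 48.8 CPM, and it was the 1 of 10 with enough UMIs. *Spry1* was 1 of 11 ERK feedback genes with enough UMIs, at 7.10 and 8.75 against 12.2 and 14 CPM, and *Txnip* 1 of 13 such FOXO targets, at 70.5 and 80.8 against 106 and 125 CPM. *Trib3* was 1 of 16 genes of the unfolded protein response, at 9.56 and 11 against 20.7 and 19.5 CPM. Of the 13 proliferation genes with enough UMIs, 4 were higher in V943R at low levels, such as *Top2a* at 8.74 and 10.8 against 16.2 and 20.9 CPM.

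The largest folds toward WT included *Dcn*, a proteoglycan of fibroblasts, at 11.5 and 16.8 CPM in WT and 4.27 and 1.74 CPM in V943R. It stood at 31.2 CPM in cluster 11 and 1324 CPM in cluster 12, and the part of RNA from such cells was not tested. *Lrg1*, an acute-phase glycoprotein, stood at 70.7 and 59.2 against 27.7 and 32.0 CPM, a log2 difference of −1.11 (−1.35 to −0.87) beside −0.72 to −1.69 in clusters 5 to 11. *Reg3g*, an antibacterial lectin, stood at 7.37 and 9.21 against 2.74 and 2.62 CPM. Further genes among the 10 were *Nme4*, *Kcnh1*, *Tada2a*, Platr17, *Degs1* and *Erbb3*. Of the 8 fibrinogen and uroplakin genes 4 had enough UMIs and 2 were lower, beside 1.41% of all genes tested. *Fgb* stood at 788 and 861 against 508 and 541 CPM and *Fgg* at 418 and 400 against 246 and 238 CPM. Some of these genes also differed between cells of different best match, whose mix differed between genotypes. *Fgg* stood at 129 CPM in cells matched to cluster 10 and 688 CPM in those matched to cluster 11, and *Cited1* at 327 and 1656 CPM. Both genes took part in that matching, so these contrasts follow from it and are no test of the mix. The cells were therefore matched again from 10047 genes without those called between genotypes, which left 92.9% of matches as they were, and the groups of match were given equal weight in every library, a step chosen after the data were seen. By this measure 233 genes were higher in V943R and 113 lower, of which 196 and 88 were among those counted before. Of the 19 list members called between genotypes 6 lost the call, namely *Fgg* (log2 difference of −0.58), *Cited1* (−0.45), *Cxcl17* (−0.51), *Cxcl12* (0.41), *Ccne1* (0.57) and *Stmn1* (0.57). *Erbb3* (−1.14), *Lrg1* (−0.95), *Fgb* (−0.65), *Igsf5* (1.05) and *Gsta4* (1.36) kept it. With the called genes kept in the matching the same 6 lost the call. With them left out, *Fgg*, *Ccne1* and *Stmn1* lay only just short of the fold of 1.5 that the rule asks. *Cited1* had been only just past that fold before the step (−0.59). Equal weight also let small groups count as much as large ones. In the first matching 66 cells matched cluster 6 and 1126 matched cluster 10. Losing or keeping the call is therefore no verdict on the part played by the mix.

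**Figure D5:**
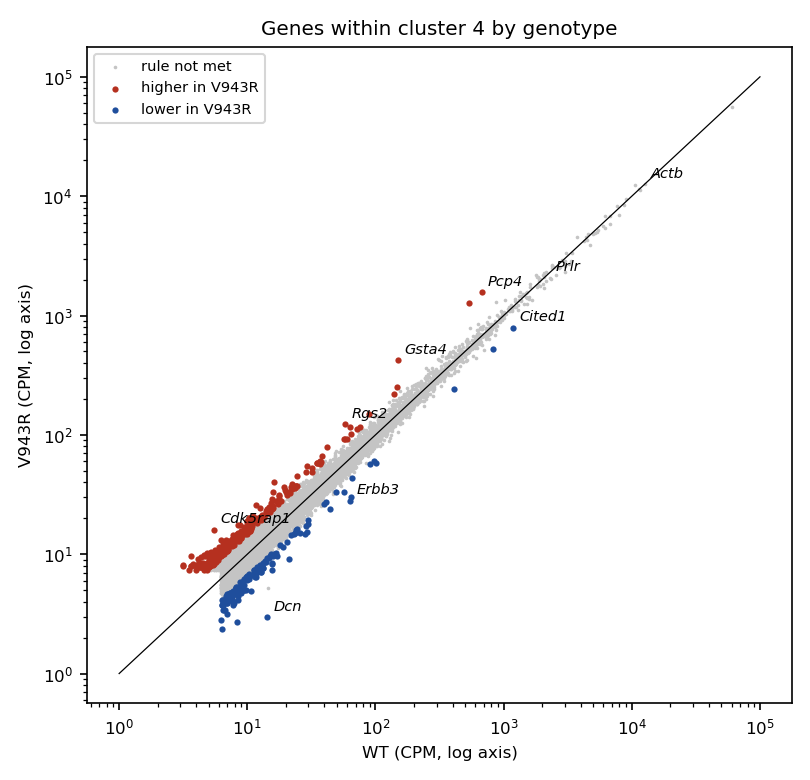
CPM of each gene within cluster 4 in WT and V943R, on log axes, for genes with at least 50 UMIs in either genotype, with equal levels on the line. Red points mark the 249 genes higher in V943R and blue points the 139 lower, with *Gsta4* and *Pcp4* above the line, *Erbb3*, *Dcn* and *Cited1* below it and *Prlr* and *Actb* near it.

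Across all 28 lists, 36 of 359 distinct members met a rule of either comparison, which is 11.9% of the 303 with enough UMIs, beside 5.6% of all 16274 genes tested by any of the rules. Of these 36, all but 22 were proliferation genes. The remaining lists gave few. *Muc1* was lower in V943R among the 8 secreted and mucosal genes with enough UMIs and *Cxcl17* among 7 such chemokines. *Ccne1* was higher in V943R among 9 such cyclins and inhibitors. *Ccne1* and *Ccne2* were lower in cluster 4 than in clusters 5 to 11, as was *Ifit1* among 16 interferon-stimulated genes. Between genotypes 0 of 22 immediate early and heat shock genes met the rule, beside 2.52% higher and 1.41% lower of all genes tested. Their median log2 difference was −0.21. None of the 15 antigen presentation, 18 cholesterol and fat synthesis, 21 glutathione and peroxide defense or 10 IGF genes met a rule, with median log2 differences between genotypes of −0.21, 0.14, −0.01 and −0.11 beside −0.01 over all genes tested.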

How the data were processed

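Single cell 3′ libraries were sequenced from 1 pool of 3 mice per genotype. The authors deposited a signal table of UMIs scaled cell by cell. The submitters' processing notes name GSNAP, bcl2fastq 2.20, CASAVA 1.8 and GRCm38. Clusters are those of the authors, made in Partek Flow. UMIs were recovered with the lowest value of a cell as 1 UMI, and 100% of 60853305 values were then whole within 0.02. No cell was left out of sums, while thinning to 1000 UMIs left out shallower cells (29 of cluster 4). UMIs were summed per library and cluster and given as CPM. Intervals are exact Poisson, binomial (Clopper-Pearson) or conditional binomial, and log-normal for ratios of shares. Named genes were the 4 markers, *Erbb3*, *Erbb2*, the 12 highest and 8 lowest ratios between clusters, the 10 largest folds each way between genotypes, the 10 most variable genes and members of 28 lists. The members and lists were chosen with earlier results of these data known. Profiles for matching had 0.5 UMIs added and genes of at least 500 UMIs. Gene positions are from GENCODE M21. Some genes that met a rule are not reported here. Rules were tried on simulated Poisson counts with larger folds and no variation between pools, which does not check the calls made here. Python 3.11.15, numpy 2.4.6, pandas 2.3.3, scipy 1.17.1 and matplotlib 3.10.9 were used with seed 1.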

Additional observations from a re-analysis of the deposited data

Results flagged for a closer look

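Some genes met the rule between genotypes one way in cluster 4 and the opposite way in another mature luminal cluster, and 10 of them are given here. The difference itself was not tested, both clusters share the libraries, and most of these genes had levels of a few CPM. More genes met the rule the same way as in cluster 4. In cluster 6 these were 49 higher and 18 lower, in cluster 10 62 and 15, and in cluster 11 16 and 34. In each of clusters 5, 7, 8 and 9, 0 genes went the opposite way. Of all genes tested in cluster 4, 2.52% were higher and 1.41% lower.

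In cluster 4 against cluster 6, the log2 differences (V943R over WT) were 0.786 and −0.865 for *Ccne1*, −0.701 and 0.605 for *Zbtb24*, −0.599 and 1.14 for *Dcp1b*, and −0.713 and 0.590 for 2700038G22Rik. Against cluster 10 they were −0.789 and 0.723 for *Smox*, and 1.31 and −0.643 for *Ivl*. Against cluster 11 they were 0.674 and −0.592 for *Krt4*, 0.723 and −3.03 for Gm17416, 0.838 and −0.712 for Gm2272, and 0.734 and −0.771 for AC151982.1.

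*Krt4* stood at 53.3 and 73.2 CPM in WT and 96.4 and 108 CPM in V943R in cluster 4, against 12.1 and 10.5 CPM in WT and 8.35 and 6.77 CPM in V943R in cluster 11. *Ivl* stood at 40.6 and 34.6 CPM in WT and 31.6 and 17.3 CPM in V943R in cluster 10.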

How the results depend on the processing

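The genes raised in cluster 4 came to 169 to 177 when each library was left out in turn, to 253 at the lower and to 97 at the higher of the alternative folds (2 in place of 1.5). The genes lower in cluster 4 came to 699 at the lower alternative fold, 219 at a fold of 2 and 31 against the mean of clusters 7 to 11, an alternative chosen after seeing the data. With a library left out they came to 436 to 482. The genes higher and lower in V943R moved more when a library was left out. Leaving out each library in turn, with fewer UMIs for the minimum and a looser rule of no overlap, gave 121 to 394 and 76 to 261. Of the genes counted with all libraries, 89 to 207 of those higher and 34 to 101 of those lower were counted again. A minimum of 20 UMIs gave 590 and 358, a minimum of 100 UMIs 117 and 51, the lower alternative fold gave 905 and 594, a fold of 2 gave 27 and 13, and thinned cells 501 and 559. The causes were not tested. Thinning moved *Prlr* to 2344 CPM and *Pgr* to 171 CPM, and variation at 2000 UMIs gave 126 genes above the threshold against 71. Outside cluster 11 the share ratios were 0.846 and 0.892. With cluster 11 included and a library left out, the ratios ranged from 0.911 to 0.991 of all cells and from 0.992 to 1.09 of mature luminal cells. No paired analysis was possible, since the libraries of a genotype came from 1 pool and nothing pairs them with those of the other genotype. The library names also do not show the replicate numbers of the sample titles. No test was made. With 1 pool per genotype, differences between pools and between genotypes cannot be told apart.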
